A study of Mus musculus with 468 samples.

Results

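The 9 genes described here belong to the response to glucocorticoids. They were Fkbp5, Tsc22d3, Sgk1, Zbtb16, Klf9, Mt1, Mt2, Hsd11b1 and Nr3c1. They were taken by gene symbol from a table of 23180 genes, which held 1 row for each of them, and all 9 were among the 18380 genes that passed a filter on low counts (a minimum of 10 counts, reached by 50% of the libraries or more). Expression was measured by RNA sequencing of adipose tissue from Diversity Outbred mice, with 1 library per mouse. Diversity Outbred mice descend from 8 inbred founder strains, so each animal carries its own mosaic of founder genomes. All animals ate a high-fat, high-sugar diet that the labels give as 45 percent fat. By the study's methods the mice came from generations 18, 19 and 21, started the diet at 4 weeks of age and were harvested at 22 weeks, and the tissue was the gonadal fat pad. There was no second diet, no hormone treatment and no untreated group, so every result below is a spread or a relation across mice of a single group. The labels give each animal a mouse number and each library a number, but neither sex nor generation. Counts from Y chromosome genes were present in 51.5% of the libraries and absent from 48.5%, and relations between genes are given within each of these classes beside the value over all libraries. The hour of harvest was not given in the sources used here, and no hormone level was analysed.

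Glucocorticoids, chiefly corticosterone in mice, act through a receptor encoded by Nr3c1. Without hormone the receptor is held in the cytoplasm by HSP90 chaperones. With hormone it moves to the nucleus, binds DNA and changes the transcription of a broad set of genes. Fkbp5 encodes a co-chaperone that lowers the receptor's affinity for hormone and is itself induced by it, which closes a short feedback loop. Tsc22d3 encodes GILZ, an anti-inflammatory leucine zipper protein, Sgk1 a kinase that acts on ion channels and Foxo factors, and Zbtb16 and Klf9 encode zinc finger transcription factors. Mt1 and Mt2 encode metallothioneins, small cysteine-rich proteins that bind zinc and copper and that respond both to glucocorticoids and, through the factor MTF1, to metal. Hsd11b1 encodes the enzyme that regenerates active hormone from its inactive keto form within the cell. In fat, glucocorticoids favour the differentiation of adipocytes and alter the storage and release of lipid, and the hormone follows a daily rhythm and rises with stress and fasting.

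The promoters of 3 members are shown as examples, picked because they held matches to a glucocorticoid or a metal response element. RefSeq promoters on GRCm38.p6 were matched for 7 of the 9 members, all but Zbtb16 and Nr3c1, and the 250 bases before each annotated start were searched on both strands. The glucocorticoid response element was written as GNACA and TGTNC with any 3 bases between them, the core of the metal response element as TGCACNC or TGCGCNC, and the E-box, bound by clock factors among others, as CACGTG. No match of any of these motifs overlapped another in the stretches printed here. Capitals mark the matches, the glucocorticoid response element in Mt1 and Sgk1, the metal response element core in Mt1 and Mt2, and the E-box at the left end of the Sgk1 stretch.
Mt1, chr8:94178959-94179081, plus strand: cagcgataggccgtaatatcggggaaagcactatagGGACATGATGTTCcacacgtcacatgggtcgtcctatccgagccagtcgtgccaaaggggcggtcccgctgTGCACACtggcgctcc
Mt2, chr8:94172368-94172617, plus strand: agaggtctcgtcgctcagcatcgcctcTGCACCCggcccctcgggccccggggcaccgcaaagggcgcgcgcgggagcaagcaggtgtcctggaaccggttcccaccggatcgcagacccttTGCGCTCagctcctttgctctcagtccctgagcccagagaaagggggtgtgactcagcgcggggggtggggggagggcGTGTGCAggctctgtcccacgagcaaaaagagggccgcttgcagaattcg
Sgk1 start site 5 of 6, chr10:21993640-21993769, plus strand: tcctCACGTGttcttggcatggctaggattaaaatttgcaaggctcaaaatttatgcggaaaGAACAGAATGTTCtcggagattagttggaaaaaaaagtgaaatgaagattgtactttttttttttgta

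Among 32851 promoters of the same length, 0.387% held the glucocorticoid response element as written, 21.4% a metal response element core and 6.02% the E-box. In Mt1 the glucocorticoid word GGACATGATGTTC lay at bases -94 to -82 counted from the start site. In Sgk1 the word GAACAGAATGTTC lay at bases -188 to -176 of start site 5, and its last base was 952 bases before start site 6. The windows of the other Sgk1 start sites held no glucocorticoid word. The Mt2 window held 3 metal response element cores and no glucocorticoid word, while the Mt1 window held 1 core. Bases past the annotated starts were not searched, so these counts compare the windows and not the genes. Hsd11b1 held 1 core, and the Fkbp5 window held an E-box at bases -169 to -164. The windows of Tsc22d3 and Klf9 held none of the words. A match of letters is a description of these windows only, and receptor binding was not measured.

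The members lie on 8 chromosomes of GRCm38, and only Mt1 and Mt2 are neighbours. Mt2 (ENSMUSG00000031762) spans 94172664 to 94173568 on chromosome 8 and Mt1 (ENSMUSG00000031765) spans 94179082 to 94180327 on the same strand, with 5513 bases between them. The longest stretch their annotated transcripts share is 20 bases. Fkbp5 (ENSMUSG00000024222) lies on chromosome 17 from 28399094 to 28517527, Tsc22d3 (ENSMUSG00000031431) on chromosome X from 140539528 to 140600659, and Sgk1 (ENSMUSG00000019970) on chromosome 10 from 21882184 to 21999903. Zbtb16 (ENSMUSG00000066687) lies on chromosome 9 from 48654297 to 48836222, Klf9 (ENSMUSG00000033863) on chromosome 19 from 23141226 to 23168134, Hsd11b1 (ENSMUSG00000016194) on chromosome 1 from 193221634 to 193264075 and Nr3c1 (ENSMUSG00000024431) on chromosome 18 from 39410545 to 39519421. By whole gene span, Lamb3 and an antisense gene on the other strand overlap Hsd11b1, as does Gm38118 on its own strand. The antisense gene Gm45774 overlaps Mt2, and Mir1192, on the same strand, overlaps Klf9. A further 4 annotated genes overlap Fkbp5, of which AC154912.1 and Gm22146 lie on the other strand. Overlap of exons was not examined, and whether counting used strand is not given in the sources used here. Whether any reads were shared with these genes was not tested.

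Library totals ran from 35.3 to 137.8 M expected counts, and levels are given as CPM, counts scaled to the library total with TMM factors. Across all libraries, the summed level of 8 adipocyte markers ran from 7871 to 35391 CPM, that of 8 macrophage markers from 305.9 to 5298 CPM, and that of 5 brown fat markers from 8.10 to 6353 CPM. In bulk tissue, fewer cells of a type and less RNA per cell cannot be told apart. A pair of libraries stood apart for the members. The library of mouse DO283 had the lowest total and held 17019 CPM of Ceacam10, a gene with a median of 0.134 CPM over all libraries, together with the lowest summed macrophage and endothelial markers of all libraries. This library also held the highest Tgm4, at 1245 CPM against a median of 0.155 CPM. Its adipocyte marker sum was 9316 CPM against a median of 22044 CPM. The part of such tissue content in its member levels was not tested. Mouse DO349 had a total of 99.02 M counts and an Adipoq level of 2112 CPM against a median of 2096 CPM.

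The member levels were high and unequal in spread. Fkbp5 ran from 16.8 to 408.6 CPM with a median of 73.4 CPM, and its mean was 82.5 ± 47.5 CPM (SD over all libraries). Tsc22d3 ran from 48.1 to 692.99 CPM with a median of 187.7 CPM (200.8 ± 79.3 CPM, SD over all libraries). Sgk1 ran from 28.4 to 729.9 CPM with a median of 85.2 CPM (87.8 ± 39.6 CPM, SD over all libraries). The highest Sgk1 value came from mouse DO283, and the next, 205.8 CPM, from mouse DO349, so a single library set the upper end of that range. Zbtb16 ran from 33.97 to 521.9 CPM with a median of 138.7 CPM (156.9 ± 76.9 CPM, SD over all libraries). Klf9 ran from 38.1 to 187.3 CPM with a median of 79.4 CPM (82.3 ± 20.97 CPM, SD over all libraries). Of these 5 targets, Klf9 had the narrowest range, with a highest value 4.91 times its lowest.

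The metallothionein genes and Hsd11b1 had wide ranges. Mt1 ran from 5.51 to 139.98 CPM with a median of 38.96 CPM (41.6 ± 20.7 CPM, SD over all libraries). Mt2 ran from 1.60 to 166.9 CPM with a median of 24.3 CPM (30.2 ± 23.9 CPM, SD over all libraries), and the library at its 95th percentile held 15.7 times the level of the library at its 5th. The enzyme gene Hsd11b1 ran from 10.8 to 483.8 CPM with a median of 45.8 CPM (62.4 ± 50.1 CPM, SD over all libraries). The receptor gene Nr3c1 was the steadiest member. It ran from 84.9 to 304.5 CPM with a median of 190.1 CPM (190.2 ± 29.6 CPM, SD over all libraries), and its lowest value was again that of mouse DO283.

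**Figure D1:**
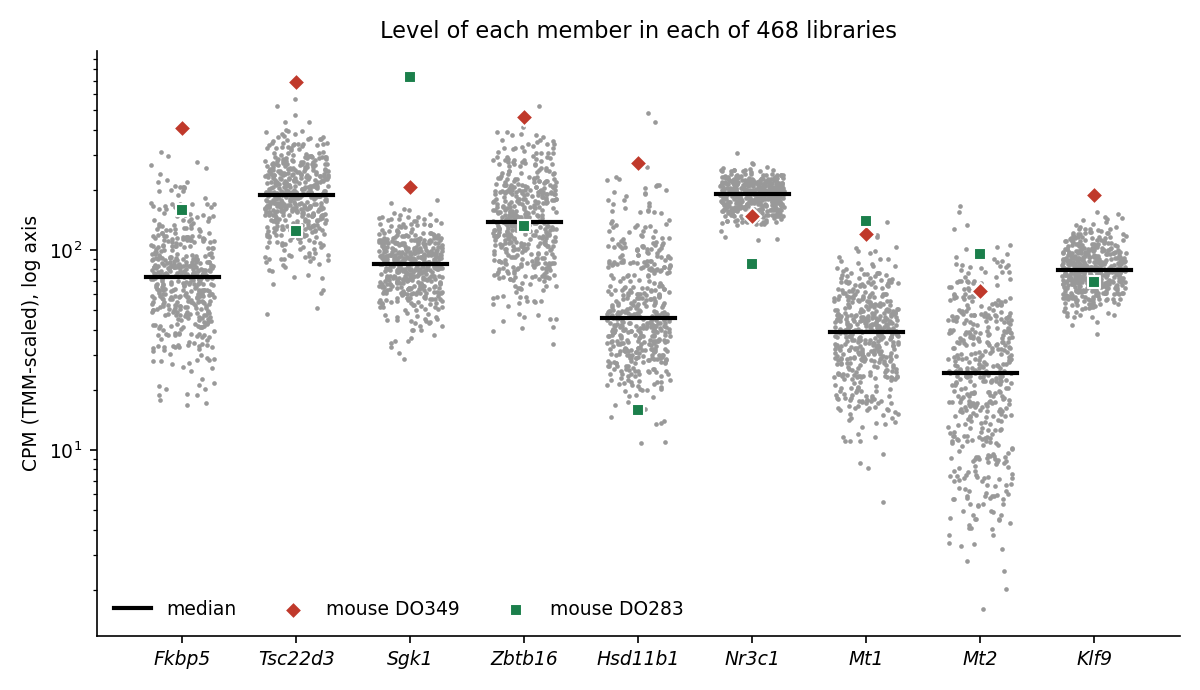
Level of each of the 9 members in each library, in TMM-scaled CPM on a log axis. Grey points are single libraries, black bars are medians, and the coloured markers are mice DO349 and DO283. Mt2 spans the widest range (1.60 to 166.9 CPM) and Nr3c1 the narrowest (84.9 to 304.5 CPM).

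Biological coefficients of variation from edgeR, which leave out counting noise, put the members in order of spread over mice. They were 0.756 for Mt2, 0.628 for Hsd11b1, 0.511 for Fkbp5, 0.479 for Mt1, 0.449 for Zbtb16, 0.379 for Tsc22d3, 0.337 for Sgk1, 0.244 for Klf9 and 0.158 for Nr3c1. The median over the members was 0.449, against 0.187 over the 9508 genes whose mean reached 10 CPM. Within those 9508 genes Mt2 stood at percentile 97.1 and Hsd11b1 at 95.5, whereas Nr3c1 stood at 39.5. The other 8 members all had a higher coefficient than Nr3c1, as a description of these libraries.

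Levels per kilobase of annotated exon, with the exons of all annotated transcripts of a gene joined, give an order that depends on the annotation. For Mt1 the joined length of 1246 bases equals its whole gene span, 94179082 to 94180327. With a shorter transcript as the length, its level per kilobase and its place in the order would be higher. Before scaling by length the mean of Mt1 was 41.6 CPM and that of Mt2 30.2 CPM. Mt2 had the highest mean at 51.3 ± 40.7 CPM per kilobase (SD over all libraries), followed by Tsc22d3 at 46.2 ± 18.3, Mt1 at 33.4 ± 16.6, Zbtb16 at 29.7 ± 14.6, Nr3c1 at 24.8 ± 3.85, Sgk1 at 17.9 ± 8.08, Klf9 at 17.1 ± 4.35, Hsd11b1 at 14.7 ± 11.8 and Fkbp5 at 8.72 ± 5.02 CPM per kilobase. No neighbours in this order differed by more than the larger of their SDs. The order of Mt2 and Tsc22d3 depended on the mean, since Mt2 was the higher in only 42.3% of the libraries. Nr3c1 was above Sgk1 in 86.5% of the libraries, the clearest step in the order, and Sgk1 above Klf9 in 53.2%.

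Mouse DO349 held the highest level of Fkbp5 (408.6 CPM), Tsc22d3 (692.99 CPM) and Klf9 (187.3 CPM) among all libraries, and also the highest Per1 (210.5 CPM). It ranked 2 for Sgk1 (205.8 CPM) and Zbtb16 (463.4 CPM), 3 for Hsd11b1 (272.7 CPM), 4 for Mt1 (120.8 CPM) and 45 for Mt2 (62.5 CPM), counted from the highest. Nr3c1 was at 148.3 CPM in the same library, below its median of 190.1 CPM. Its Lep level of 0.717 CPM, from 70 counts, was the lowest of all libraries, whose median was 1127 CPM. Lep encodes leptin, the hormone that fat releases in proportion to its stored lipid. The summed level of 30 other glucocorticoid targets was highest in this library too, at 14815 CPM against a median of 4957 CPM, while its adipocyte marker sum ranked 66, its progenitor marker sum 14, its endothelial marker sum 3 and the sum of 10 further genes of the metal response 1. The part of such cell content in its member levels was not tested. Mouse DO283 differed in kind, with the highest Sgk1 and Mt1 (139.98 CPM) but with Tsc22d3 at 124.1 CPM and Hsd11b1 at 15.8 CPM, both below their medians. Neither library decided the relations below, which kept their direction and their side of the threshold for members against Per1, Lep, Fkbp5 and mouse number when either was left out.

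Members were then compared with each other across mice, which asks whether they rise and fall as a group. Of the 36 pairs, 26 had a positive and 7 a negative Pearson's r of log2 CPM with an unadjusted two-sided permutation p under 0.05, and 3 did not pass. Among all pairs of a member with a non-member gene, 30.2% were positive and 31.7% negative by the same unadjusted threshold. Outside the metallothionein pair, the closest members were Fkbp5 and Tsc22d3, with r = 0.69 and Spearman's rho = 0.66 (two-sided permutation p = 1e-05 for both, the smallest that 100000 permutations can give). Fkbp5 also went with Mt1 (r = 0.62, rho = 0.58), Mt2 (r = 0.57, rho = 0.54), Klf9 (r = 0.46, rho = 0.42), Zbtb16 (r = 0.44, rho = 0.42) and Sgk1 (r = 0.39, rho = 0.38), each with a permutation p of 1e-05 for r and for rho. Leaving out the 2 libraries farthest from the Fkbp5 median left r between 0.37 and 0.67 for these 6 pairs. Hsd11b1 stood at the edge of the group, with r = 0.14 (permutation p = 0.00179) and rho = 0.11 (permutation p = 0.0199) against Fkbp5.

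Among all 18379 other genes tested, Tsc22d3 ranked 4 from the highest r with Fkbp5, Mt1 ranked 15 and Mt2 23. Nr3c1 ranked 8 from the lowest. These ranks describe mice in which all genes share the same libraries. The gene nearest to Fkbp5 was Mertk, a receptor by which macrophages engulf dying cells (r = 0.76), followed by Aff1 (r = 0.72) and Mlxip (r = 0.70), and the farthest was G0s2, an inhibitor of the lipase ATGL (r = -0.51). The gene nearest to Tsc22d3 was Slc10a6 (r = 0.73), and Cebpd, a transcription factor of early adipocyte differentiation, came next (r = 0.70). Likeness here is Pearson's r over all libraries, among 9499 non-member genes whose mean reached 10 CPM.

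The classes of libraries with and without Y chromosome counts differed in several pairs, so both values are given. For Fkbp5 and Tsc22d3, r was 0.52 in the libraries with and 0.76 in those without Y chromosome counts. For Fkbp5 and Mt2 the values were 0.26 and 0.67, and for Fkbp5 and Mt1 0.41 and 0.67. Fkbp5 and Zbtb16 had 0.57 and 0.61, both above the r of 0.44 over all libraries, and Fkbp5 and Klf9 had 0.62 and 0.66, above 0.46. Fitted in limma, the slope on Fkbp5 differed between the classes for 3 of the 8 other members, where 27.2% of all genes did, so that this count is near the background. The slope was 0.39 ± 0.04 log2 units per log2 unit of Fkbp5 (SE) with and 0.59 ± 0.03 (SE) without Y chromosome counts for Tsc22d3 (limma adjusted p = 0.00259 for the difference), 0.40 ± 0.06 and 0.60 ± 0.04 for Mt1 (limma adjusted p = 0.0287), and 0.37 ± 0.09 and 0.94 ± 0.07 for Mt2 (limma adjusted p = 8.26e-05). In each, the steeper slope was in the libraries without Y chromosome counts.

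The receptor gene went the other way. Nr3c1 was lower where Fkbp5 was higher (r = -0.43, rho = -0.41, permutation p = 1e-05 for both) and lower where Mt2 was higher (r = -0.58, rho = -0.59, permutation p = 1e-05 for both) and where Mt1 was higher (r = -0.45, rho = -0.44, permutation p = 1e-05 for both). The sign held in both classes for these 3 pairs, at -0.20 with and -0.55 without Y chromosome counts for Fkbp5, -0.49 and -0.57 for Mt2, and -0.39 for Mt1 in both. For Tsc22d3 the class with Y chromosome counts did not share it, with r = 0.08 (permutation p = 0.232) against -0.46 (permutation p = 1e-05). Against Zbtb16, Nr3c1 had r = 0.36 with and -0.19 without Y chromosome counts, and the pooled r of 0.19 described neither. Nr3c1 was closest to the adipocyte transcription factor gene Ebf1 (r = 0.71) and to Acvr1c (r = 0.71). A score is the mean of the standardized log2 CPM of the markers of a cell type. The r of Nr3c1 with the adipocyte score was 0.67 and with the macrophage score -0.47 over the same libraries. With both scores as covariates the r of Nr3c1 and Fkbp5 was -0.53. Scaled by library total without TMM, the negative r of Nr3c1 was weaker. It was -0.29 with Fkbp5, -0.30 with Mt2, -0.34 with Mt1 and -0.09 with Tsc22d3.

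Mt1 and Mt2 were the tightest pair of all 36, with r = 0.83 and rho = 0.83 (permutation p = 1e-05 for both), and each ranked 1 among the r of the other over all 18379 genes. Without the 2 libraries farthest from the Mt1 median r was 0.82. Within the 5 blocks of mouse number their r ran from 0.76 to 0.90. The pair nevertheless differed in company. Mt2 was closest to Cyth3 (r = 0.67) and farthest from Irs1, an adaptor of insulin signalling (r = -0.66), while the highest r of Mt1 with a non-member was 0.50, for Slc25a30. Mt2 had r = 0.50 with the macrophage score and -0.38 with the adipocyte score, against 0.21 and -0.19 for Mt1. The part that such cell content has in these relations was not tested beyond the covariate values given here.

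Zbtb16 and Klf9, both transcription factor genes, formed a further close pair with r = 0.63 and rho = 0.62 (permutation p = 1e-05 for both), and r was 0.58 in each class and 0.62 without the 2 libraries farthest from the Zbtb16 median. Zbtb16 was closest to Fam214a (r = 0.85, 0.88 with and 0.78 without Y chromosome counts), followed by D230025D16Rik (r = 0.76) and Foxo1, a transcription factor of the fasting response (r = 0.76). Klf9 was closest to Dcun1d3 (r = 0.73) and Klf15, another glucocorticoid target (r = 0.71). Against Mt2, Klf9 had r = -0.04 over all libraries (permutation p = 0.386), 0.00 with (permutation p = 0.999) and 0.36 without Y chromosome counts (permutation p = 1e-05). Over the 9 members, the first principal component of log2 CPM took 41.3% of the variance and the second 24.96%. Fkbp5 (r = 0.87 with the component), Tsc22d3 (0.84), Mt1 (0.78) and Mt2 (0.71) led the first, with Nr3c1 opposite (-0.46). Zbtb16 (0.71), Klf9 (0.68), Nr3c1 (0.63) and Hsd11b1 (0.57) led the second, with Mt2 opposite (-0.61). The same genes differed in sign from Mt2 in other measures of the library. With the log2 TMM factor, r was -0.47 for Nr3c1, -0.41 for Hsd11b1, -0.38 for Zbtb16 and -0.33 for Klf9 against 0.39 for Mt2. With the percent of mitochondrial counts it was between 0.36 and 0.42 for these 4 and -0.54 for Mt2, and with the brown fat score between 0.30 and 0.38 against -0.53. The part of these measures in the second component was not tested.

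**Figure D2:**
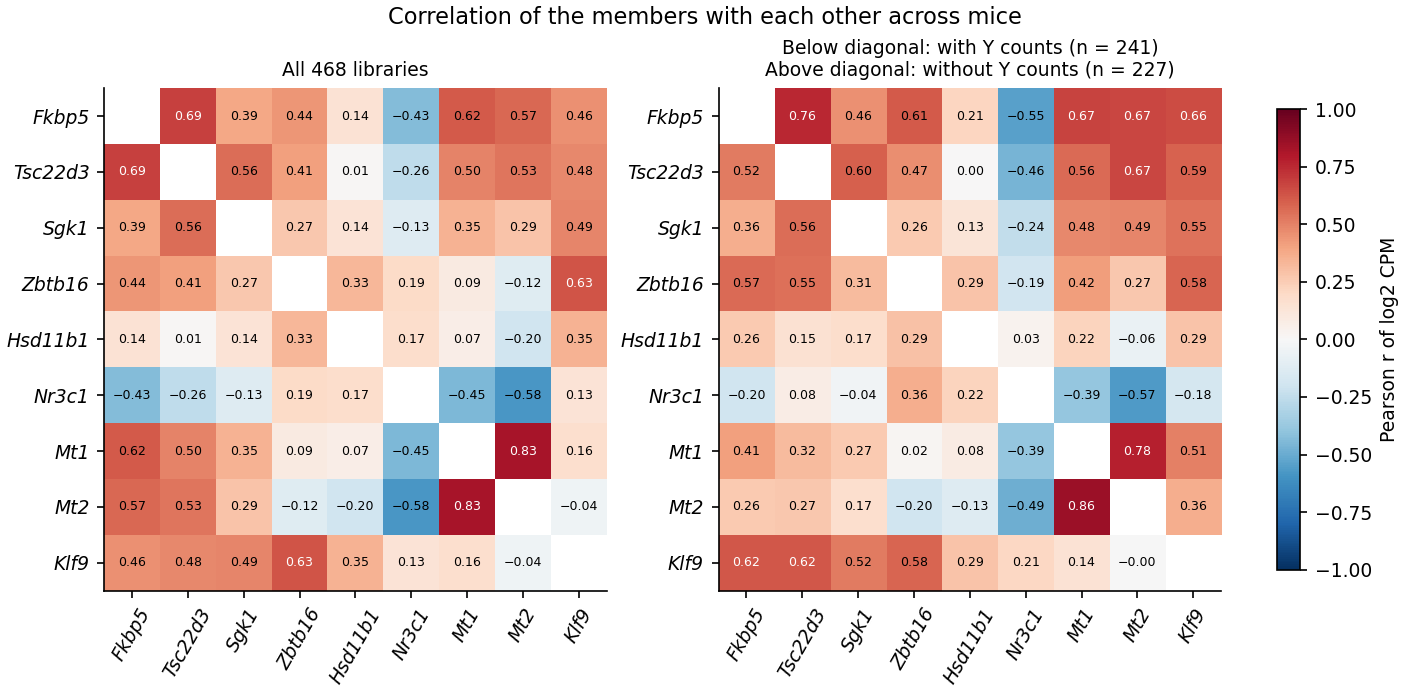
Pearson's r of log2 CPM for the 36 pairs of members, coloured from -1 (blue) to 1 (red). The left panel uses all libraries, and the right panel the libraries with Y chromosome counts below and those without above the diagonal. Fkbp5 with Tsc22d3, Mt1 and Mt2 is red in both classes and deeper in those without Y chromosome counts, and Nr3c1 with Mt1 and Mt2 is blue in both.

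Other genes of the pathway were read against Fkbp5 from lists of known function. These lists were chosen with earlier results of these data known, so their counts are descriptions. Among all genes tested, 21.7% had a positive and 21.1% a negative relation to Fkbp5 (limma on log2 CPM, adjusted p under 0.05 over all genes), and without TMM the shares were 61.1% and 10.5%. Of the 8 other members, 7 were positive and 1, Nr3c1, was negative. Of 30 other glucocorticoid targets, 23 were positive, 4 negative and 3 did not pass, with a median r of 0.26 against 0.00 over all genes. The highest were Mertk (r = 0.76), Fam107a, an actin-binding protein gene (r = 0.68), and Map3k6, a kinase gene (r = 0.66). The 4 negative ones were Cebpb (r = -0.27), Bcl6 (r = -0.18), Irs2 (r = -0.13) and Pdk4 (r = -0.11), and for Pdk4 r was 0.18 in the libraries with Y chromosome counts. Dusp1, Pik3r1 and Angptl4 did not pass.

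Of 15 genes for receptor machinery and steroid handling, 2 were positive, 8 negative and 5 did not pass over all libraries, with a median r of -0.12. The positive ones were H6pd, which supplies the cofactor of the Hsd11b1 enzyme (r = 0.36), and the coactivator gene Ncoa1 (r = 0.28). Nr3c2, the gene of the mineralocorticoid receptor that also binds glucocorticoids, was the lowest (r = -0.25). By class it had -0.04 with and -0.42 without Y chromosome counts. The chaperone genes Hsp90aa1 (r = -0.17) and Fkbp4 (r = -0.17) were negative over all libraries, while Fkbp4 had 0.14 with and -0.09 without Y chromosome counts. In the same classes Hsp90aa1 had -0.05 and -0.06. Hsp90ab1, Ptges3 and Stip1 had pooled values of -0.16, -0.12 and -0.15. They had 0.01, 0.07 and -0.06 with and -0.01, 0.03 and 0.01 without Y chromosome counts, so the pooled values of these chaperone genes described neither class. Of 8 further genes of the metal response, 3 were positive and none negative. These were the zinc importer gene Slc39a14 (r = 0.47), the glutathione synthesis gene Gclc (r = 0.26) and the zinc exporter gene Slc30a1 (r = 0.25), whereas Mtf1 had r = -0.06 (limma adjusted p = 0.293). Of 15 clock genes, 7 were positive and 1, Arntl, was negative (r = -0.17), with Per1 (r = 0.37) and Per2 (r = 0.35) the highest.

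**Figure D3:**
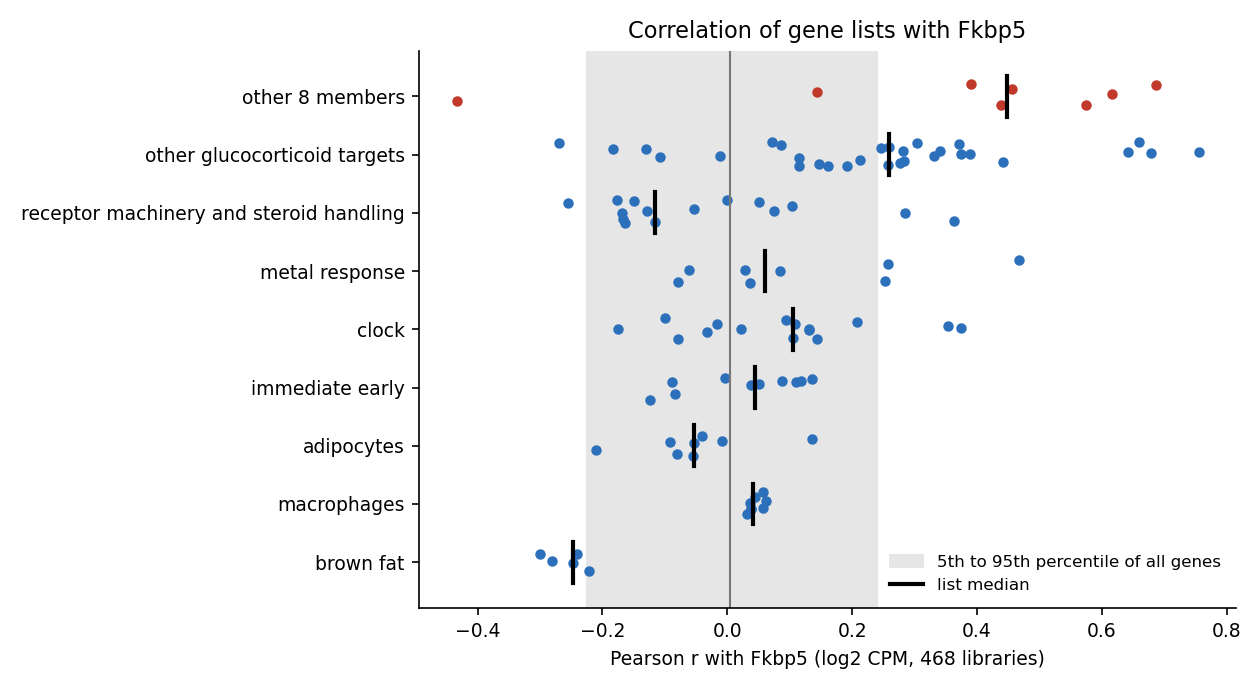
Pearson's r with Fkbp5 over all libraries for the other 8 members and for genes of 8 lists. Points are genes, black bars list medians, the grey line the median of all genes and the grey band their 5th to 95th percentile (-0.22 to 0.24). The members have a median of 0.45 and the other glucocorticoid targets of 0.26, while all 8 macrophage markers lie near 0 in this pooled r. Within the libraries with Y chromosome counts, not drawn here, these 8 had r from -0.28 to -0.22. The lists were chosen with earlier results of these data known.

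Markers of cell types were read in the same fit. Over all libraries none of 8 macrophage markers passed in either direction (limma), and 0 of them had an unadjusted p under 0.05. The lowest unadjusted limma p among them was 0.176, for Cd68. Within the libraries with Y chromosome counts, however, all 8 had a negative r with Fkbp5, from -0.28 (Cd68) to -0.22 (Mrc1). In those without, all 8 had a positive r, from 0.03 (Itgam) to 0.11 (C1qa). Over all libraries endothelial markers were 2 positive and 1 negative of 6, and of 8 adipocyte markers 1 was positive and 1 negative. All 5 brown fat markers were negative, with a median r of -0.25, and 4 of 5 red blood cell markers were positive. Within the classes the brown fat values were smaller and mixed in sign. They ran from -0.15 (Dio2) to 0.11 (Cidea) with and from -0.17 (Ucp1) to 0.01 (Dio2) without Y chromosome counts. Of 5 mesothelium markers 3 were negative over all libraries, with a median r of -0.15, and of 4 skeletal muscle markers 1 was positive and 2 were negative. By class the mesothelium markers ran from -0.09 (Msln) to 0.08 (Krt19) with and from -0.12 (Lrrn4) to 0.02 (Msln) without Y chromosome counts. The muscle markers ran from -0.04 (Tnnt3) to 0.07 (Mylpf) and from -0.12 (Ckm) to 0.09 (Acta1). The r of Fkbp5 over all libraries was -0.06 with the score of the adipocyte markers and 0.05 with the macrophage score. The part of macrophage, brown fat, blood, mesothelium and muscle content in the Fkbp5 relations was not tested.

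Per1 is both a clock gene and a direct glucocorticoid target, so it was set against each member. Over all libraries, 7 of the 9 members were positive and 0 negative against Per1 (limma adjusted p under 0.05), where 28.8% of all genes were positive and 29.7% negative, and 28.3% and 7.50% without TMM. Per1 ran from 23.4 to 210.5 CPM with a median of 95.01 CPM. The steepest slopes were those of Tsc22d3, at 0.68 ± 0.04 log2 units per log2 unit of Per1 (SE, r = 0.60, rho = 0.60), Zbtb16 at 0.68 ± 0.06 (r = 0.48, rho = 0.51) and Sgk1 at 0.62 ± 0.03 (r = 0.65, rho = 0.66). Klf9 had a slope of 0.48 ± 0.02 but the highest correlation (r = 0.67, rho = 0.67), and in Klf9 Per1 ranked 5 from the highest among all genes. Fkbp5 (slope 0.57 ± 0.07, r = 0.37, rho = 0.37), Hsd11b1 (0.46 ± 0.08, r = 0.26, rho = 0.28) and Mt1 (0.31 ± 0.07, r = 0.22, rho = 0.22) were also positive. The permutation p was 1e-05 for r and for rho in these 7 relations, and without the 2 libraries farthest from the Per1 median r ran from 0.23 (Mt1) to 0.66 (Klf9). Mt2 (slope 0.19 ± 0.11, limma adjusted p = 0.141) and Nr3c1 (0.00 ± 0.02, limma adjusted p = 0.913) did not pass. Mt2 did pass with presence of Y chromosome counts as a covariate (slope 0.52, limma adjusted p = 9.93e-07), without TMM (0.53, limma adjusted p = 6.35e-05) and with the adipocyte and macrophage scores as covariates (0.58, limma adjusted p = 2.25e-07). With those scores Nr3c1 passed as negative (slope -0.092, limma adjusted p = 7.45e-07). Cell markers moved with Per1 as well. All 8 macrophage markers were negative (median slope -0.34), all 5 brown fat markers positive (median slope 0.98) and 7 of 8 adipocyte markers positive. Their part in the member relations was not tested beyond the covariate fits.

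The slope on Per1 differed between the classes of libraries for 4 members, where 0.495% of all genes did. For Fkbp5 it was 0.47 ± 0.07 with and 1.06 ± 0.10 without Y chromosome counts (limma adjusted p = 0.00354 for the difference), and for Mt2 it was 0.12 ± 0.11 and 1.09 ± 0.16 (limma adjusted p = 0.00175). For Mt1 the slopes were 0.22 ± 0.07 and 0.80 ± 0.10 (limma adjusted p = 0.00396), and for Tsc22d3 0.62 ± 0.04 and 0.98 ± 0.07 (limma adjusted p = 0.00935). All 4 were steeper without Y chromosome counts. In Sgk1 the difference was -0.04 ± 0.07 (limma adjusted p = 0.825), and in Klf9 -0.12 ± 0.05 (limma adjusted p = 0.206). In Nr3c1 the slope was -0.11 ± 0.03 in the libraries without Y chromosome counts (limma adjusted p = 0.0038) and 0.03 ± 0.03 in those with them, and the difference did not pass (limma adjusted p = 0.0798).

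Lep was set against each member because its level follows fat mass. Against Lep, 3 members were positive and 5 negative over all libraries, where 39.9% of all genes were positive and 40.1% negative (59.3% and 22.2% without TMM). The share of members called was thus close to that of all genes, and the values below are descriptions of the members. Of the cell type markers, all 8 of macrophages were positive (median r = 0.60), all 5 of brown fat negative (median r = -0.52) and 7 of 8 of adipocytes negative, with a median r of -0.33 over the 8. Mt2 was higher where Lep was higher, with a slope of 0.36 ± 0.03 log2 units per log2 unit of Lep (SE, r = 0.50, rho = 0.59). Hsd11b1 was lower, at -0.25 ± 0.02 (r = -0.49, rho = -0.43), as were Zbtb16 at -0.20 ± 0.02 (r = -0.50, rho = -0.54), Klf9 at -0.09 ± 0.01 (r = -0.45, rho = -0.43) and Nr3c1 at -0.04 ± 0.01 (r = -0.32, rho = -0.43). The permutation p was 1e-05 for r and rho of these 5 members. Without the 2 libraries farthest from the Lep median r was 0.54 for Mt2, -0.46 for Hsd11b1, -0.49 for Zbtb16, -0.43 for Klf9 and -0.36 for Nr3c1. For Hsd11b1, Lep was among the genes with the lowest r, rank 25 from the lowest of 18379. Sgk1 was weakly lower (r = -0.19, permutation p = 5e-05, rho = -0.12, permutation p = 0.00741). Several of these calls did not hold under another scaling or with cell content in the fit. Without TMM, Nr3c1 (limma adjusted p = 0.973) and Sgk1 (limma adjusted p = 0.711) did not pass, while Fkbp5 did (slope 0.059, limma adjusted p = 0.00513). With the adipocyte and macrophage scores as covariates, Nr3c1 (limma adjusted p = 0.219), Tsc22d3 (limma adjusted p = 0.301) and Mt1 (limma adjusted p = 0.736) did not pass. With those scores r was 0.29 for Mt2, -0.35 for Hsd11b1, -0.27 for Zbtb16 and -0.29 for Klf9.

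Fkbp5 itself showed no relation to Lep over all libraries (slope 0.01 ± 0.02, limma adjusted p = 0.674, r = 0.02, permutation p = 0.645). Within the libraries with Y chromosome counts, however, its slope was -0.16 ± 0.03 (limma adjusted p = 1.95e-07, r = -0.34), against -0.01 ± 0.03 in those without (limma adjusted p = 0.734). The difference passed for Fkbp5 (limma adjusted p = 0.00475) and for 3 more members, Tsc22d3, Sgk1 and Zbtb16, where 41.5% of all genes differed, so that 4 of 9 members is near the background. The slope of Zbtb16 was -0.30 ± 0.03 with and -0.12 ± 0.02 without Y chromosome counts (limma adjusted p = 1.08e-05), that of Sgk1 -0.13 ± 0.02 and -0.03 ± 0.02 (limma adjusted p = 0.00204), and that of Tsc22d3 -0.03 ± 0.02 and 0.07 ± 0.02 (limma adjusted p = 0.0134). Tsc22d3 and Mt1 were called positive over all libraries but did not hold that direction in both classes. Mt1 had slopes of 0.04 ± 0.03 and -0.04 ± 0.03, and neither passed (limma adjusted p = 0.196 and 0.163). Hsd11b1, Zbtb16, Nr3c1, Klf9 and Mt2 passed in both classes with the sign they had over all libraries.

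**Figure D4:**
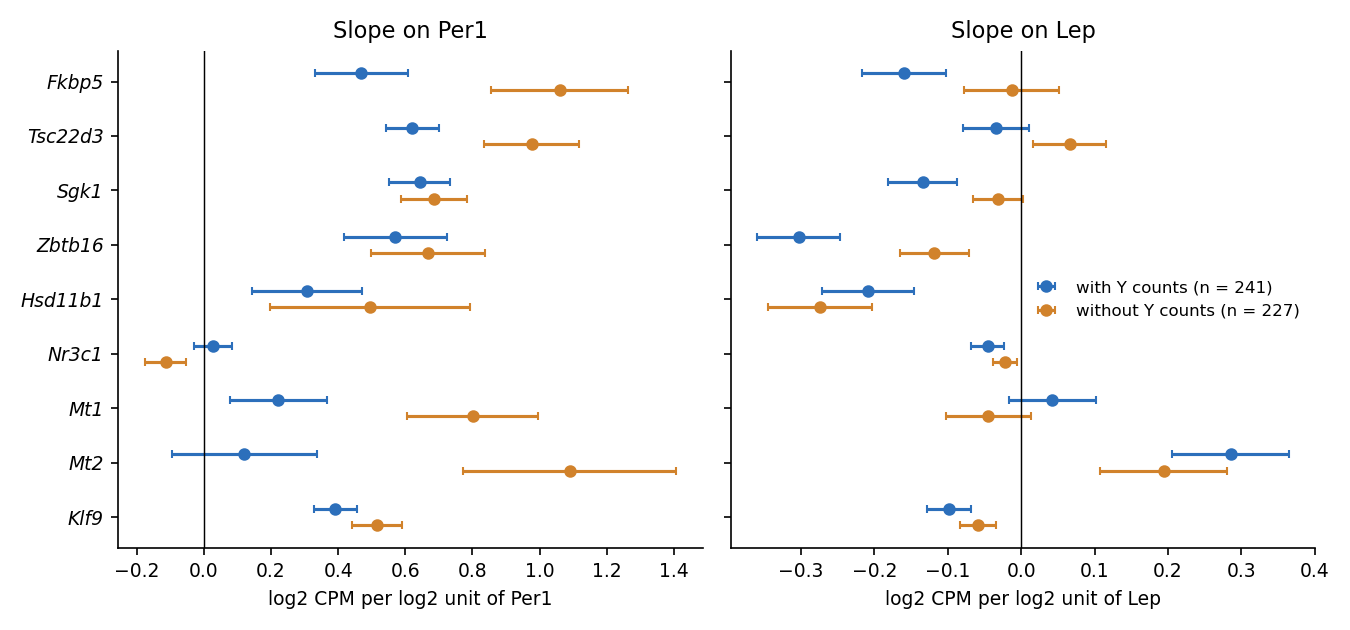
Slope of log2 CPM of each member on log2 CPM of Per1 (left) and of Lep (right), fitted in limma within the libraries with (blue) and those without (orange) Y chromosome counts. Points are slopes and bars 2 SE either way. For Mt2 on Per1 the slopes are 0.12 and 1.09, and on Lep the slope of Zbtb16 is -0.30 and -0.12.

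Mouse number, the order in which the labels number the animals, was tested last. With library number in the fit (edgeR quasi-likelihood), 3 members fell with mouse number and 0 rose, where 12.1% of all genes fell and 11.7% rose. Zbtb16 had block means of 7.44 ± 0.73, 7.17 ± 0.72, 7.10 ± 0.60, 7.02 ± 0.70 and 6.90 ± 0.62 log2 CPM (SD, n = 94, 93, 94, 93 and 94) over 5 blocks of consecutive mouse numbers. Its slope was -0.13 ± 0.02 log2 units per 100 mouse numbers (SE, edgeR adjusted p = 2.8e-08), and the spread within each block was larger than the steps between them. Klf9 had a slope of -0.039 ± 0.011 (SE, edgeR adjusted p = 0.00448). With presence of Y chromosome counts as a covariate its edgeR adjusted p was 0.157, and without the last block it was 0.503. Fkbp5 had a slope of -0.060 ± 0.022 (SE, edgeR adjusted p = 0.0348), while limma gave an adjusted p of 0.168. Its block means were 6.43 ± 0.80, 6.14 ± 0.78, 6.07 ± 0.68, 6.12 ± 0.81 and 6.09 ± 0.66 log2 CPM, so that the first block stood above the other 4. Without that block its slope was 0.008 (edgeR adjusted p = 0.871), without the last block it was -0.068 (edgeR adjusted p = 0.240), and without the first block Zbtb16 kept a slope of -0.099 (edgeR adjusted p = 0.00288). Other gene groups moved along the same order. All 10 immediate early genes rose (median slope 0.19 per 100 mouse numbers), among them Fos, whose block means were 3.33, 3.43, 4.45, 4.58 and 4.73 log2 CPM (SD from 0.92 to 1.29) and whose r with Zbtb16 was -0.35. Of the cell type markers, 3 of 5 of mesothelium and 3 of 6 of progenitors fell, and 2 of 8 of macrophages rose. Their part in the member slopes was not tested.

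An F-test over the 5 blocks called 5 members, Fkbp5, Sgk1, Zbtb16, Nr3c1 and Klf9 (edgeR adjusted p from 3.56e-06 to 0.0355), where 16.9% of all genes were called. Limma called only Zbtb16 and Nr3c1 of the members, with adjusted p of 0.0629 for Fkbp5, 0.0631 for Sgk1 and 0.0583 for Klf9, and with presence of Y chromosome counts as a covariate Klf9 did not pass (edgeR adjusted p = 0.0904). Sgk1 was highest in the middle block, at 6.499 ± 0.513 log2 CPM (SD, n = 94) against 6.28 ± 0.52 to 6.41 ± 0.42 in the others, and Nr3c1 was lowest in the last, at 7.49 ± 0.21. Tsc22d3 (edgeR adjusted p = 0.179), Hsd11b1 (0.994), Mt1 (0.503) and Mt2 (0.677) did not pass. Library number, the only technical order in the labels, called 0 members, and 0.267% of all genes (edgeR). None of the 9 members had an unadjusted p under 0.05 in that fit, and limma on log2 CPM gave 0 members called and 2 with an unadjusted p under 0.05. Libraries with and without Y chromosome counts alternated in runs of up to 50 consecutive mouse numbers, so blocks of mouse number hold different shares of each. The slope on mouse number differed between the classes for 0 members (limma, 2.48% of all genes), with an unadjusted p under 0.05 for Nr3c1, Mt1 and Mt2.

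**Figure D5:**
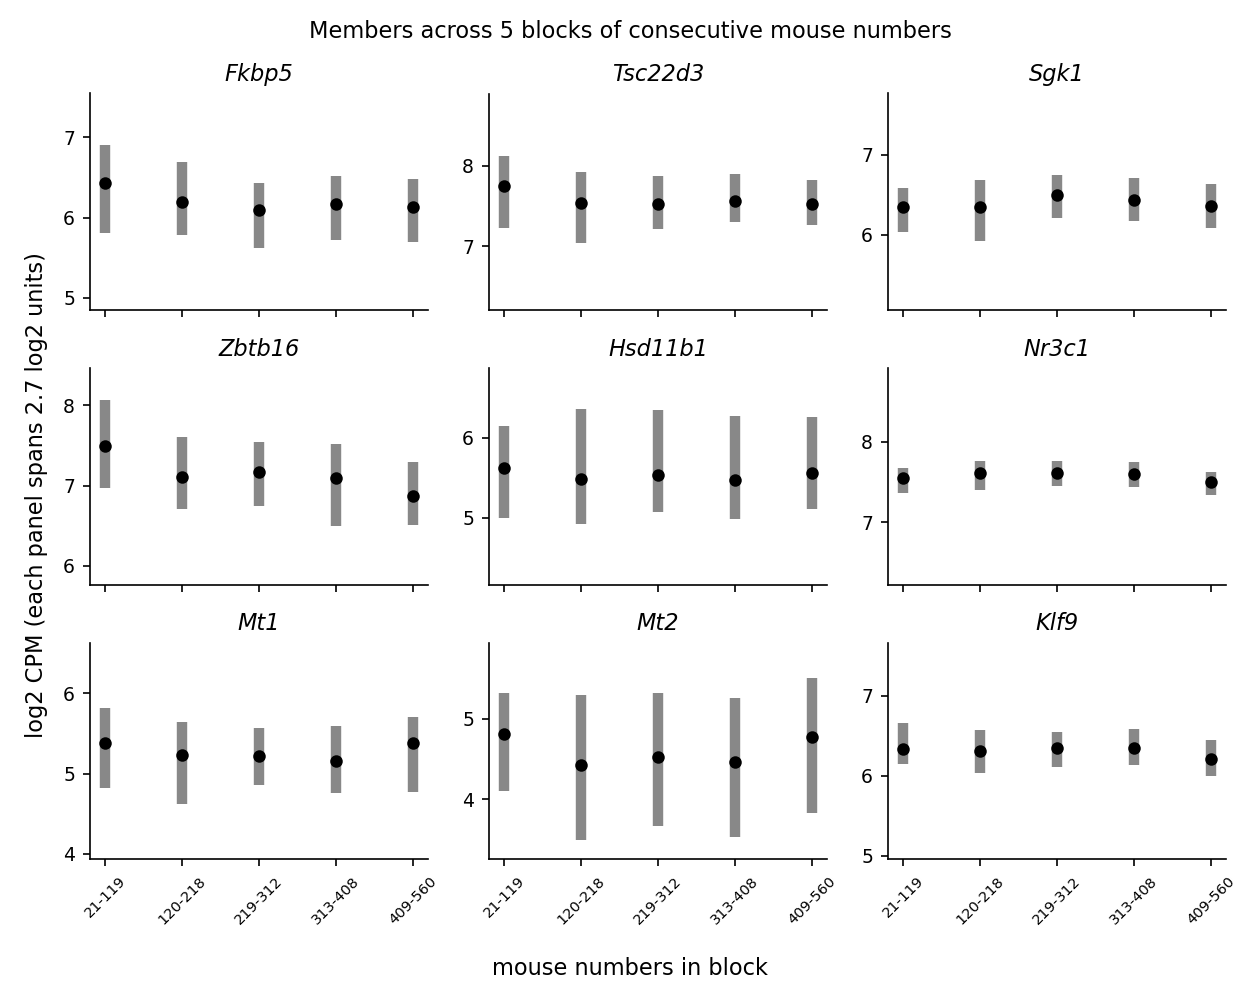
Log2 CPM of each member in 5 blocks of consecutive mouse numbers (93 or 94 mice each). Dots are medians, grey bars run from the 25th to the 75th percentile, and every panel spans 2.7 log2 units. Zbtb16 steps down from the first to the last block, while Hsd11b1 stays level.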

How the data were processed

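RNA was sequenced from adipose tissue of 468 mice, 1 library each. The authors deposited expected counts per gene, made by allele-aware read assignment (EMASE and GBRS, GRCm38), and a log2 table from the variance-stabilizing transformation of DESeq2. The submitters' processing notes name GRCm38 and DESeq2. The deposited expected counts were rounded to whole numbers here, and 18380 of 23180 genes with at least 10 counts in at least 50% of libraries were kept. Library totals ran from 35.3 to 137.8 M (median 82.0 M). Counts were scaled by TMM (factors 0.579 to 1.36) and expressed as CPM or log2 CPM (prior count 2). The deposited log2 values served only as an alternative.

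Trends with mouse and library number and the differences over 5 blocks of mouse number used edgeR 4.0.16 (quasi-likelihood). Relations to Per1, Lep and Fkbp5, and their differences between libraries with and without Y chromosome counts, used limma 3.58.1 with trend. P-values were adjusted by Benjamini-Hochberg over all genes, with a threshold of 0.05. Correlations had two-sided tests of 100000 permutations in numpy 2.4.6 and scipy 1.17.1. In data simulated on these libraries, edgeR recovered 78% of 50 slopes of 0.05 per 100 mouse numbers and called 0.066% of unchanged genes. On Per1, limma recovered 10% of 50 slopes of 0.05 and 44% of 50 slopes of 0.1 per log2 unit. It called 0.0605% of unchanged genes. Genes were drawn independently of each other and of the Y chromosome classes, so these shares do not give the false calls in the real libraries. Alternatives were RLE scaling, limma, DESeq2 1.42.0, no TMM, no filter, the deposited log2 values, covariates, single blocks and libraries left out.

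Named genes were the 9 members, Per1, Lep, the 3 highest and the 1 lowest genes by r with each member, and list genes with the largest r with Fkbp5. Others were chosen after their values were seen, and 1 gene named by this rule is not reported here. The members and lists were chosen with earlier results of these data known. Mice are separate animals of a single labelled group. No label of sex, generation or hour of harvest of each mouse was used here, and presence of Y chromosome counts stood in for sex.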

Additional observations from a re-analysis of the deposited data

Results flagged for a closer look

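In 11 relations the slope differed between the libraries with and those without Y chromosome counts, by the limma interaction term over all genes. Differences are given as with minus without, in log2 units per log2 unit. On Per1 they were -0.591 for Fkbp5, -0.355 for Tsc22d3, -0.579 for Mt1 and -0.969 for Mt2. On Lep they were -0.147 for Fkbp5, -0.100 for Tsc22d3, -0.103 for Sgk1 and -0.185 for Zbtb16. On Fkbp5 they were -0.198 for Tsc22d3, -0.199 for Mt1 and -0.562 for Mt2. These are 4 of 9 members on Per1, where 0.495% of all genes differed, 4 of 9 on Lep, where 41.5% did, and 3 of 8 on Fkbp5, where 27.2% did. The counts on Lep and on Fkbp5 are near the background. The libraries of each class came in runs of consecutive mouse numbers, so class and position in the numbering cannot be fully told apart.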

How the results depend on the processing

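Of 1675 values for single members and pairs under alternatives, 1445 kept their direction and their side of the threshold, 35 changed sign with neither value past the threshold, 13 gained the threshold, 41 turned direction with at least 1 of both values past it, and the rest lost it. Only these 41 are listed below as turned. The cause of these changes was not tested, except that single blocks and classes hold fewer libraries. For the slope on mouse number, 1 member was called without the last block, 13.8% of genes with Y chromosome counts as a covariate and 6.93% without the last block, and Fkbp5 turned to 0.0079 without the first block. For library number, limma called 0% of genes (1018 genes had an unadjusted p under 0.05) and edgeR without a filter 0.608%. Over blocks, limma called 2 members and 10.4% of genes, and 10 blocks called 8 members and 74.2% of genes. Those 10 blocks are close in size to the runs of libraries with and without Y chromosome counts. Members called against Per1 were 3 in mouse block 3 and 4 in block 5. Against Lep they were 5 with the adipocyte and macrophage scores as covariates, in mouse blocks 1 and 4 and in library blocks 1 and 4. Against Fkbp5 they were 5 in mouse block 5. Negative pairs were 3 in mouse block 1 and 4 in mouse blocks 2 and 5 and library blocks 3, 4 and 5.

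Slopes that turned were, on Per1, Nr3c1 with scores (-0.092) and without Y chromosome counts (-0.114). On Lep they were Fkbp5 with the Y covariate (-0.068) and with Y chromosome counts (-0.160), Tsc22d3 in mouse block 1 (-0.033), library block 5 (-0.025) and with Y chromosome counts (-0.034), Sgk1 in mouse block 5 (0.0080), and Mt1 with the Y covariate (-0.012), in mouse block 4 (-0.0019) and without Y chromosome counts (-0.045). On Fkbp5 it was Hsd11b1 in mouse block 3 (-0.0021).

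Pairs that turned in mouse blocks were Fkbp5 and Hsd11b1 (-0.0016) and Sgk1 and Hsd11b1 (-0.025) in block 3, Sgk1 and Nr3c1 (0.030) and Mt1 and Klf9 (-0.022) in block 5, Zbtb16 and Mt1 in blocks 4 (-0.025) and 5 (-0.064), and, in block 1, Zbtb16 and Mt2 (0.068), Nr3c1 and Klf9 (-0.107) and Mt2 and Klf9 (0.212). In library blocks they were Sgk1 and Hsd11b1 (-0.042, block 2) and Sgk1 and Nr3c1 (0.027, block 1, and 0.057, block 5). With Y chromosome counts it was Tsc22d3 and Nr3c1 (0.077). Without them they were Zbtb16 and Nr3c1 (-0.192), Zbtb16 and Mt2 (0.272), Nr3c1 and Klf9 (-0.176) and Mt2 and Klf9 (0.361). With the Y covariate they were Zbtb16 and Mt2 (0.055) and Mt2 and Klf9 (0.203). With scores they were Zbtb16 and Nr3c1 (-0.312), Zbtb16 and Mt2 (0.237), Hsd11b1 and Nr3c1 (-0.079), Nr3c1 and Klf9 (-0.139) and Mt2 and Klf9 (0.202). Without TMM they were Zbtb16 and Nr3c1 (-0.021), Hsd11b1 and Nr3c1 (-0.080), Nr3c1 and Klf9 (-0.0030) and Mt2 and Klf9 (0.144).

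The alternatives without the first or last block, without single libraries, and of the limma relations within each class were chosen after seeing the data. Leaving out mouse DO283 or DO349 changed no member call against mouse number, Per1, Lep or Fkbp5, but the pair of Sgk1 and Nr3c1 without DO283 (r = -0.059) and that of Zbtb16 and Mt1 without DO349 (r = 0.082) lost an unadjusted p under 0.05. No paired analysis was possible because all libraries belong to a single group.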
